A study of Mus musculus with 4 samples.

Results

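The genes described here serve protein folding in the endoplasmic reticulum (ER) and the stress response that watches over it. They were chosen by name as 32 genes in 4 groups, which are the stress sensors, the chaperones and folding factors, the degradation machinery, and the arm run by the transcription factors Atf4 and Ddit3. All 32 were found among the 22458 gene symbols of the normalized expression table, 31 in a row of their own and Pdia4 in a row that also names the microRNA gene Mir704. The study profiled jejunal epithelium by RNA-seq, with 2 libraries labelled Hnf4a;Cdx2 double-knockout and 2 labelled Cre- control, from adult mice of a 129xC57/Bl6xSvJ mixed background. Hnf4a and Cdx2 encode transcription factors of the intestinal epithelium. Mice of both groups received 1 mg of tamoxifen on each of 5 days, the treatment that switches on the recombinase where Cre is present. Neither the promoter that drives Cre nor the exons flanked for deletion is given in the sources used here, nor is an age beyond adult.

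Proteins that enter the secretory pathway fold in the ER with the help of chaperones, lectins and disulfide isomerases. When unfolded proteins accumulate, the membrane sensors Ern1 (IRE1 alpha), Eif2ak3 (PERK) and Atf6 start the unfolded protein response, in which Ern1 splices the Xbp1 transcript, Atf6 is cut to release a transcription factor, and Eif2ak3 slows translation while favouring that of Atf4. Secretory cells of the intestine, such as goblet and Paneth cells, carry a large ER and are known to depend on this response.

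The labels were checked first on the targeted genes. Hnf4a had 31.6 and 48.2 FPKM (a level per length of transcript and per size of library) in the libraries labelled double knockout, against 156 and 202 FPKM in controls, lower by limma with an adjusted p of 0.0147 (log2 fold change -2.16, SE 0.27). Cdx2 had 160 and 161 FPKM in the libraries labelled double knockout, against 70.9 and 65.2 FPKM in controls, higher by limma with an adjusted p of 0.0150 (log2 fold change 1.23, SE 0.15), which goes against the label for Cdx2. Every direction below therefore rests on the labels. The epithelial genes Fabp2 and Fabp1 reached 5532 to 10015 FPKM in all 4 libraries, but of 10 epithelial markers 1 rose (Krt19) and 2 fell (Epcam and Vil1), that is 30%, against 9.57% of all genes. Epcam, an adhesion protein of epithelia, had 526 and 531 FPKM in the libraries labelled double knockout, against 1135 and 1281 FPKM in controls (limma, adjusted p = 0.0300). The part of these shifts in the members' values was not tested. The 10 genes of stroma and endothelium, led by Vim and Dcn, summed to 4.16 and 9.12 FPKM in the libraries labelled double knockout and to 7.61 and 8.40 FPKM in controls. Over the tested genes, which are not independent replicates, Pearson's r of the log2 values was 0.961 for the pair labelled double knockout and 0.971 for the control pair. The files used here give FPKM without read counts, so the depth of the libraries is unknown.

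The promoters of the family carry short elements through which the response acts, and they are shown for 5 members that illustrate the results below. The ER stress element, bound by Atf6 and Xbp1 with a partner at its CCAAT end, was searched as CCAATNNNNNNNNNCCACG on both strands in the 250 bases before the start of each gene, in RefSeq promoters of build GRCm38.p6. It was present in 9 of the 28 members with a promoter in that table (Hspa5, Hsp90b1, Calr, Canx, Pdia6, Dnajc3, Creld2, Syvn1 and Derl3), against 0.113% of all 32851 promoters. A shorter form, ATTGG, any base and then CCACG, stood in Herpud1 and in 0.0304% of all promoters, and the core TGACGTG of a further response element stood in Hspa5 and in 1.65%. The element read by Atf4 with C/EBP partners, searched as TGATGNAA, stood in Asns, Chac1 and Herpud1 and in 3.45% of all promoters. No matches of different elements overlapped in the members. Atf6, Hyou1, Manf and Derl1 had no entry in the table. The sequences run 5′ to 3′ towards the gene, with matches in capitals, and Hsp90b1 holds an ER stress element on each strand.
Hspa5 (chr2:34771840-34772089, plus strand): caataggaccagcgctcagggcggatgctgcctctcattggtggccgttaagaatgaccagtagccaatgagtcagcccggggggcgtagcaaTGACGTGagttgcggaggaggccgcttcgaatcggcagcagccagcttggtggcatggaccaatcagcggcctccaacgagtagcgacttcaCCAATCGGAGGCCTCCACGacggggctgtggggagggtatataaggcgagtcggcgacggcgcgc
Hsp90b1 (chr10:86705445-86705694, minus strand): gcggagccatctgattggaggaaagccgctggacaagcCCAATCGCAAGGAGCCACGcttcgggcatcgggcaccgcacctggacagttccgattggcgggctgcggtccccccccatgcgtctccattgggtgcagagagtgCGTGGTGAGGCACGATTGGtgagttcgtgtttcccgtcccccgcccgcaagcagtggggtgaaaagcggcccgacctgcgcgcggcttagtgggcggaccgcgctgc
Canx (chr11:50325674-50325923, minus strand): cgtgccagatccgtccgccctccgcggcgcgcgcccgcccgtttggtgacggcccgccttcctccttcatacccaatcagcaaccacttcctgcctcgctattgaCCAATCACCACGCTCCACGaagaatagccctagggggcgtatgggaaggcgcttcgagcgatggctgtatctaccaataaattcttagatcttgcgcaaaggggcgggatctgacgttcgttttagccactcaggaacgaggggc
Syvn1 (chr19:6046326-6046575, plus strand): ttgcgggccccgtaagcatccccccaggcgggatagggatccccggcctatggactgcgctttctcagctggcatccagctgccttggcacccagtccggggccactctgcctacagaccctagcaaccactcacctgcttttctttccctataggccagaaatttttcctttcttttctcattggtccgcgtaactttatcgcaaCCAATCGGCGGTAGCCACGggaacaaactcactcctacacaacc
Asns (chr6:7693210-7693459, minus strand): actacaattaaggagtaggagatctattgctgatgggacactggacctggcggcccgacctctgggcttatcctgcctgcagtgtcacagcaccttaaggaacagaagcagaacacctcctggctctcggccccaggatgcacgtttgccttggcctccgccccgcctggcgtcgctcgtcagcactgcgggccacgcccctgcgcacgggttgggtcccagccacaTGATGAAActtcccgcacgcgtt
Hspa5 and Hsp90b1 are shown as chaperones whose levels overlapped between the genotypes, Canx and Syvn1 as carriers of the same element with lower levels in the libraries labelled double knockout, and Asns as the member that rose. A match describes the letters of a window and is neither a bound site nor a cause.

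In the libraries labelled double knockout 1 member rose (Asns) and 2 fell (Edem1 and Ddit3) among the 30 members that passed the filter of a mean of 1 FPKM. The genotypes were compared with limma on log2(FPKM + 1) over 10883 genes, with calls at an adjusted p under 0.05. Calls made up 10% of the members tested, close to the 9.57% of all genes called (3.77% higher and 5.8% lower), so the module as a whole was not called more often than genes at large. Its members lay lower on balance, with 21 of 30 log2 fold changes below 0 and a median of -0.21, beside 47.7% of all genes below 0 and a median of 0.02 over all genes. Over the 30 members that lean rested largely on the second library labelled double knockout, without which 16 lay below 0. The median was then -0.03. All 6 tested members of the degradation group still lay below 0 without that library, at a median of -0.47. With FPKM of each library alone 15 of 30 lay below 0 at a median of -0.05, while 21 of 30 lay below the median of all genes, which was then 0.17. The groups did not overlap in 17 members (56.7%, against 60.7% of all genes). Of the members tested 13 were lower (43.3%, against 29.5% of all genes) and 4 higher (13.3%, against 31.2%) in this way. At an unadjusted p under 0.05 limma placed 9 members lower and 1 higher, that is 30% and 3.33% of those tested, against 15% and 13.3% of all genes. An adjusted p under 0.1 in limma would take in 8 members (26.7%, against 18.4% of all genes). Leaving out any 1 of the 4 libraries ended the calls of Asns, Edem1 and Ddit3, and calls over all genes became fewer as well. Log2 fold changes then ran from 0.96 to 1.25 for Asns, -1.15 to -0.87 for Edem1 and -0.93 to -0.79 for Ddit3. In bulk tissue fewer cells of a type and less RNA per cell cannot be told apart.

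**Figure D1:**
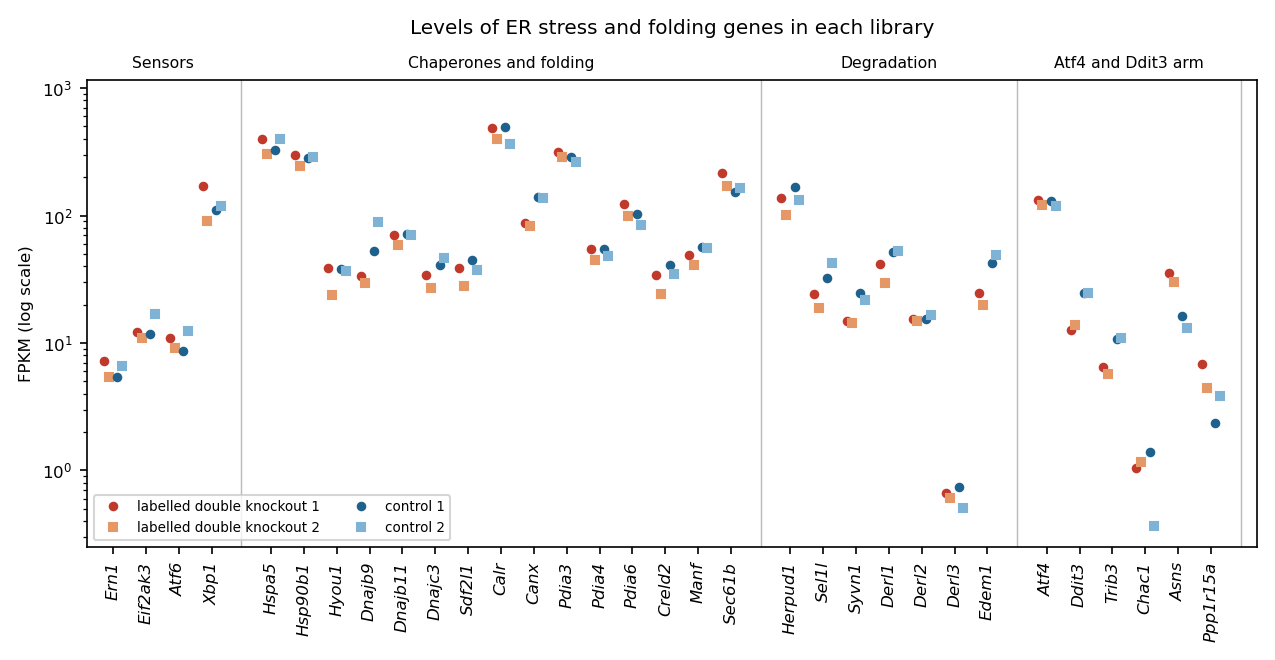
Level of each of the 32 genes in FPKM on a log axis, with 1 point for each library; libraries labelled double knockout are red and orange and stand left of the blue controls. Calr, Hspa5, Pdia3 and Hsp90b1 are the most abundant members in both groups, and the points of Edem1, Ddit3, Trib3, Canx and Syvn1 lie lower in the libraries labelled double knockout while those of Asns lie higher.

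Of the 4 sensors and their transducers none was called, and the groups overlapped in each. Xbp1, the transcription factor made active by Ern1, had 172 and 90.7 FPKM in the libraries labelled double knockout, against 110 and 119 FPKM in controls. Its highest and lowest values were thus the 2 libraries labelled double knockout, and the log2 fold change of 0.12 (limma, adjusted p = 0.844) had a 95% interval of -0.73 to 0.97. These values sum the spliced and unspliced Xbp1 transcripts, so they do not show the splicing that Ern1 carries out. Ern1 had 7.24 and 5.45 FPKM in the libraries labelled double knockout, against 5.38 and 6.56 FPKM in controls. Atf6 had 11.0 and 9.13 FPKM in the libraries labelled double knockout, against 8.59 and 12.4 FPKM in controls. Both were scarce transcripts with overlapping groups. Eif2ak3 had 12.1 and 10.9 FPKM in the libraries labelled double knockout, against 11.8 and 16.9 FPKM in controls, where the second control stood above the other 3 libraries (limma, log2 fold change -0.28, adjusted p = 0.441).

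The main ER chaperones were abundant and did not pass the test in either direction. Hspa5 (BiP), the Hsp70 chaperone that also holds the sensors inactive, had 396 and 305 FPKM in the libraries labelled double knockout, against 328 and 396 FPKM in controls. Hsp90b1 (Grp94), the Hsp90 chaperone of the ER, had 297 and 246 FPKM in the libraries labelled double knockout, against 284 and 290 FPKM in controls. Both genes had overlapping groups and a sign that turned with FPKM estimated for each library alone (0.11 for Hspa5 and 0.08 for Hsp90b1), with main log2 fold changes of -0.05 for Hspa5 and -0.09 for Hsp90b1 (limma, adjusted p = 0.904 and 0.805) and 95% intervals of -0.63 to 0.52 and -0.57 to 0.40. Calr, a lectin chaperone of the ER lumen, had 488 and 402 FPKM in the libraries labelled double knockout, against 497 and 365 FPKM in controls. Its membrane relative Canx had 88.0 and 82.1 FPKM in the libraries labelled double knockout, against 139 and 138 FPKM in controls. The 2 calnexin cycle lectins therefore looked unlike: the groups of Calr overlapped (log2 fold change 0.05; limma, adjusted p = 0.907), while both Canx values lay under both controls (log2 fold change -0.69 ± 0.15, SE; limma, adjusted p = 0.0578), a difference that did not pass the threshold. The difference between Calr and Canx was not itself tested.

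The disulfide isomerases lay close to the controls. Pdia3, which works with Calr and Canx on glycoproteins, had 313 and 288 FPKM in the libraries labelled double knockout, against 286 and 264 FPKM in controls. Pdia6 had 122 and 99.4 FPKM in the libraries labelled double knockout, against 102 and 84.8 FPKM in controls. The row naming Pdia4 had 54.6 and 44.8 FPKM in the libraries labelled double knockout, against 54.6 and 48.0 FPKM in controls. None of these isomerases was called, and their log2 fold changes ran from -0.05 for Pdia4, which turned to 0.02 with quantile normalization, to 0.24 (limma, lowest adjusted p = 0.468, for Pdia6). Sec61b, a subunit of the channel through which proteins enter the ER, had 215 and 172 FPKM in the libraries labelled double knockout, against 152 and 166 FPKM in controls, higher in each library labelled double knockout but not called (log2 fold change 0.28; limma, adjusted p = 0.403).

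None of the 3 J-domain partners of Hspa5 was called. Dnajb9 (ERdj4), which is known to repress Ern1 and to serve degradation, had 33.8 and 29.4 FPKM in the libraries labelled double knockout, against 52.8 and 89.1 FPKM in controls. The groups did not overlap, and the log2 fold change of -1.10 ± 0.28 (SE) was the lowest of all members, with controls far apart and no call (limma, adjusted p = 0.0785). The authors' deposited table, in a test of its own, calls 3 of 31 members (13.2% of its 11594 genes are called), among them Dnajb9, at 33.6 FPKM in the knockout and 71.3 FPKM in control (q = 0.0137). Dnajc3 (p58IPK), which also restrains Eif2ak3, had 34.4 and 26.8 FPKM in the libraries labelled double knockout, against 40.9 and 46.3 FPKM in controls (log2 fold change -0.50; limma, adjusted p = 0.165). Dnajb11 (ERdj3) had 70.0 and 58.8 FPKM in the libraries labelled double knockout, against 71.5 and 70.2 FPKM in controls (log2 fold change -0.14; limma, adjusted p = 0.626). All 3 partners had lower means in the libraries labelled double knockout without passing the threshold, and Dnajb11 stood at 0.02 with FPKM estimated for each library alone.

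Of the other stress-induced proteins of the ER lumen none was called. Hyou1 (Grp170), a chaperone and nucleotide exchange factor for Hspa5, had 38.4 and 23.6 FPKM in the libraries labelled double knockout, against 37.8 and 37.0 FPKM in controls. Only the second library labelled double knockout was low for Hyou1, and the log2 fold change of -0.30 (limma, adjusted p = 0.494) turned to 0.04 without it. Manf, a secreted factor retained in the ER by Hspa5, had 49.0 and 41.2 FPKM in the libraries labelled double knockout, against 56.1 and 55.8 FPKM in controls. Creld2 had 34.1 and 24.3 FPKM in the libraries labelled double knockout, against 41.0 and 34.6 FPKM in controls. Both had groups that did not overlap, with log2 fold changes of -0.31 and -0.38 (limma, adjusted p = 0.283 and 0.325). Sdf2l1, a component of Hspa5 complexes, had 38.9 and 27.8 FPKM in the libraries labelled double knockout, against 44.6 and 37.4 FPKM in controls, where the groups overlapped.

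The 8 tested members with an ER stress element in the promoter did not share a direction. Of these, 6 had log2 fold changes below 0, the values ran from -0.69 in Canx to 0.24 in Pdia6 around a median of -0.23, and none was called. The 18 tested members whose promoters lacked the element in that window had a median of -0.11, a range from -1.10 to 1.10 and all 3 calls. Over all genes 9.57% were called, so sets of 8 and 18 are too small for their calls to be compared.

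The degradation machinery was the group with the lowest median, with all 6 tested members below 0 (against 47.7% of all genes) and a median log2 fold change of -0.60. With FPKM of each library alone 5 of the 6, all but Derl2, lay below 0. All 6 then lay below the median of all genes, which was 0.17. Edem1, a lectin that directs misfolded glycoproteins to degradation (chromosome 6, 108778634 to 108809350, mm9), had 24.6 and 20.0 FPKM in the libraries labelled double knockout, against 42.8 and 48.6 FPKM in controls. Both control values of Edem1 were above both others, and it fell to 22.3 ± 3.26 FPKM in the libraries labelled double knockout, against 45.7 ± 4.12 FPKM in controls (SD, n = 2 each), with limma giving an adjusted p of 0.0340 (log2 fold change -1.01, SE 0.18). The authors' deposited table also calls Edem1, at 23.6 FPKM in the knockout and 46.9 FPKM in control (q = 0.0281). With any 1 library left out the limma adjusted p for Edem1 lay between 0.0616 and 0.142, with log2 fold changes of -1.15 to -0.87.

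Of the ubiquitin ligase complex of the ER membrane, Syvn1 and Sel1l lay lower as well, without passing the threshold. Syvn1 (Hrd1), the ligase, had 14.8 and 14.4 FPKM in the libraries labelled double knockout, against 24.7 and 21.8 FPKM in controls. Sel1l, the adaptor that holds Syvn1 stable, had 24.2 and 18.9 FPKM in the libraries labelled double knockout, against 32.2 and 42.3 FPKM in controls. The groups did not overlap in either gene, and the log2 fold changes were -0.63 ± 0.15 for Syvn1 and -0.76 ± 0.22 for Sel1l (SE; limma, adjusted p = 0.0690 and 0.0954). Derl1, a channel component for proteins leaving the ER, had 41.3 and 29.6 FPKM in the libraries labelled double knockout, against 52.1 and 53.0 FPKM in controls (log2 fold change -0.57; limma, adjusted p = 0.151). Its relative Derl2 had 15.5 and 14.9 FPKM in the libraries labelled double knockout, against 15.5 and 16.6 FPKM in controls, a log2 fold change of -0.07 (limma, adjusted p = 0.778) that became 0.17 with FPKM estimated for each library alone. Herpud1, a stress-induced scaffold of the ligase, had 136 and 101 FPKM in the libraries labelled double knockout, against 168 and 134 FPKM in controls, with overlapping groups (limma, adjusted p = 0.379). Derl3, the third derlin, stayed under the filter at 0.667 and 0.610 FPKM in the libraries labelled double knockout, against 0.738 and 0.507 FPKM in controls.

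**Figure D2:**
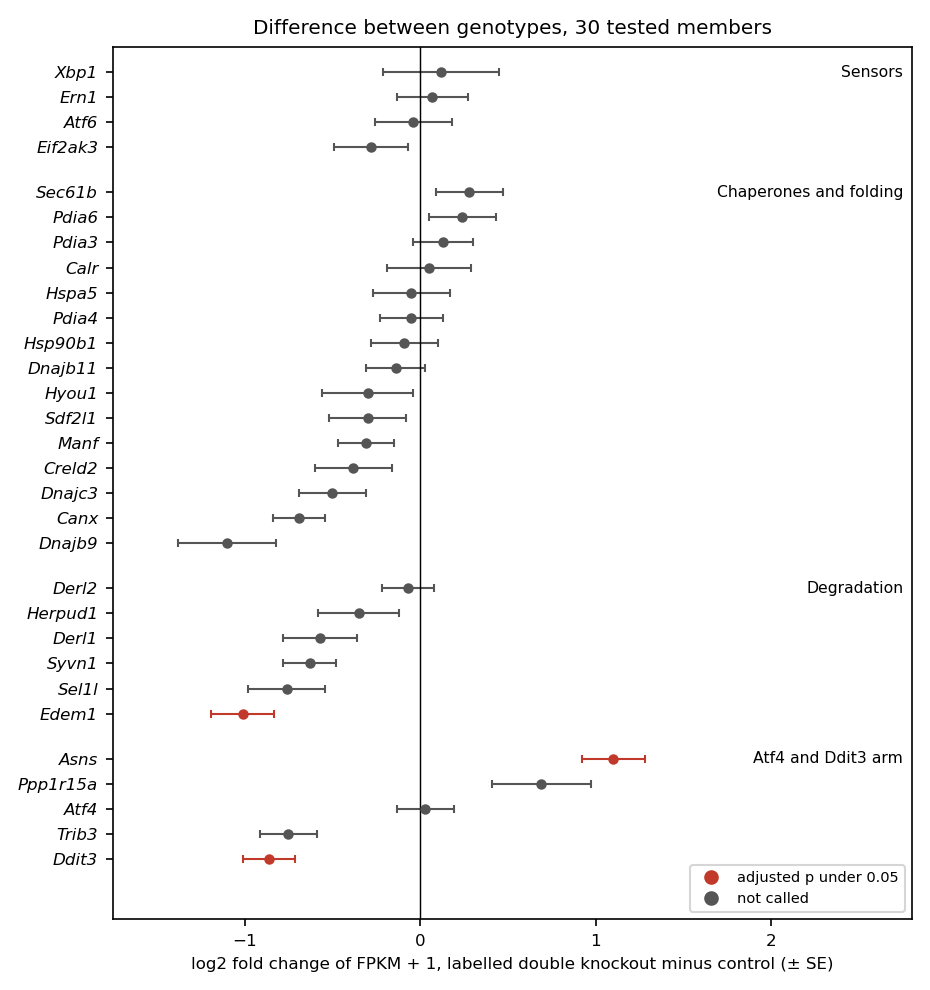
Log2 fold change of FPKM + 1 for each of the 30 tested members, labelled double knockout minus control, with bars of 1 SE from limma; red points have an adjusted p under 0.05. All 6 degradation genes lie left of 0, the 4 sensors and most chaperones lie near it, and Asns and Ddit3 of the Atf4 and Ddit3 arm lie on opposite sides at 1.10 and -0.86. With FPKM of each library alone Derl2 lies at 0.17, where the median of all genes is 0.17.

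The Atf4 and Ddit3 arm was split, with 1 of its 5 tested members called in each direction and overlapping groups for Atf4 itself. These calls made up 40% of so few genes, against 9.57% of all genes called (3.77% higher and 5.8% lower). Atf4 had 133 and 121 FPKM in the libraries labelled double knockout, against 130 and 119 FPKM in controls, with a log2 fold change of 0.03 (limma, adjusted p = 0.929) and a 95% interval of -0.39 to 0.45. Because Atf4 is controlled largely through translation, its transcript level does not show its protein level. Asns, the asparagine synthetase gene and a target of Atf4 (chromosome 6, 7625170 to 7643182, mm9), had 35.5 and 30.0 FPKM in the libraries labelled double knockout, against 16.3 and 13.2 FPKM in controls. Both libraries labelled double knockout stood above both controls, and Asns rose to 32.8 ± 3.88 FPKM in them, against 14.8 ± 2.22 FPKM in controls (SD, n = 2 each), 2.22 times the control level, with limma giving an adjusted p of 0.0301 (log2 fold change 1.10, SE 0.18). The authors' deposited table calls Asns too, at 33.1 FPKM in the knockout and 14.9 FPKM in control (q = 0.00291). Leaving out any 1 library gave Asns a limma adjusted p of 0.0772 to 0.123, with log2 fold changes of 0.96 to 1.25. Ppp1r15a (Gadd34), which brings a phosphatase to restart translation, had 6.80 and 4.44 FPKM in the libraries labelled double knockout, against 2.38 and 3.80 FPKM in controls, higher in both but not called (log2 fold change 0.69; limma, adjusted p = 0.190).

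Other products of the same arm lay on the opposite side. Ddit3 (CHOP), a transcription factor linked to cell death under ER stress (chromosome 10, 126727848 to 126733344, mm9), had 12.6 and 13.9 FPKM in the libraries labelled double knockout, against 24.8 and 24.9 FPKM in controls. The replicates of Ddit3 lay close together in each group, and it fell to 13.3 ± 0.956 FPKM in the libraries labelled double knockout, against 24.8 ± 0.0322 FPKM in controls (SD, n = 2 each), with limma giving an adjusted p of 0.0326 (log2 fold change -0.86, SE 0.15). The authors' deposited table gives 12.0 FPKM in the knockout and 22.9 FPKM in control for Ddit3 and does not call it (q = 0.488). Its locus there ends at 126748842, which takes in Mars (126733276 to 126748842), a synthetase gene whose annotated span overlaps the end of Ddit3. The sources used here do not state whether reads were counted by strand, so reads in that overlap cannot be assigned to either gene. Mars had 21.1 and 18.4 FPKM in the libraries labelled double knockout, against 11.9 and 8.45 FPKM in controls, the opposite direction (limma, adjusted p = 0.0637). In all, 5 members have a longer locus in that table than in the files of single libraries, the others being Dnajb11, Pdia6, Syvn1 and Derl2. With FPKM estimated for each library alone the limma adjusted p of Ddit3 was 0.0771, and leaving out any 1 library gave 0.104 to 0.129. Trib3, a pseudokinase induced by Ddit3 and Atf4, had 6.49 and 5.71 FPKM in the libraries labelled double knockout, against 10.8 and 11.0 FPKM in controls, with groups that did not overlap and no call (log2 fold change -0.75 ± 0.16, SE; limma, adjusted p = 0.0509). Chac1, which degrades glutathione, stayed under the filter with 1.05 and 1.16 FPKM in the libraries labelled double knockout, against 1.40 and 0.368 FPKM in controls.

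Among the members the 2 libraries labelled double knockout did not stand alike. In 29 of the 30 tested members the second of them was lower than the first, Ddit3 being the exception, against 53.2% of all genes tested. Between the controls the second was lower in 14 of the 30 members, against 50.7% of all genes. The median difference of the members from the control mean was -0.03 in the first library labelled double knockout and -0.34 in the second on the log2 scale, beside 0.03 and 0.02 for all genes. For the chaperones these medians were 0.04 and -0.26, and for degradation they were -0.47 and -0.73. Degradation was thus lower than in controls in both libraries, while the median of the chaperones lay below them only in the second. Without the second library the median log2 fold change of the chaperones was 0.04, and without the first it was -0.26.

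**Figure D3:**
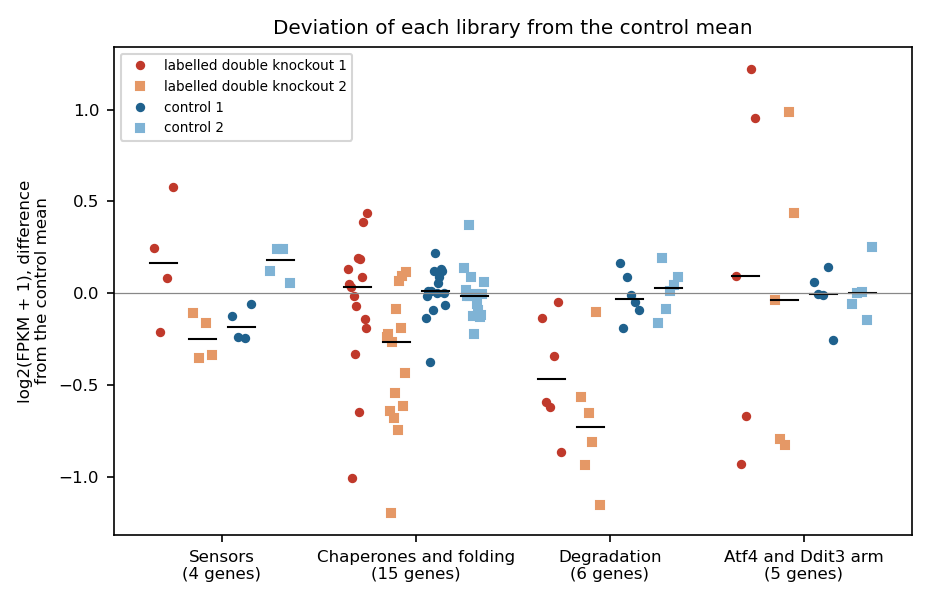
Difference of each library from the control mean in log2(FPKM + 1), with 1 point for each tested member and a black bar at the median of the group. Libraries labelled double knockout (red and orange) stand left of the controls (blue) in each group; the orange points lie lower than the red ones among sensors, chaperones and degradation, and the medians for degradation are -0.47 and -0.73.

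Summed levels of secretory cell markers were read beside these values. For comparison, limma called 3.77% of all genes higher and 5.8% lower, and 28.3% had an unadjusted p under 0.05. In 31.2% of all genes both libraries labelled double knockout stood above both controls. The 10 goblet cell markers, led by Zg16 and Tff3, summed to 20450 and 14080 FPKM in the libraries labelled double knockout, against 19636 and 17538 FPKM in controls, and 0 of the 10 were called by limma (3 at an unadjusted p under 0.05). That sum was carried by Zg16, Tff3 and Spink4. Other goblet genes ran in another order, such as Muc2, the main mucin, with 109 and 131 FPKM in the libraries labelled double knockout, against 170 and 139 FPKM in controls. The 11 Paneth cell markers, led by Defa24 and Lyz1, summed to 29586 and 64015 FPKM in the libraries labelled double knockout, against 46871 and 41231 FPKM in controls, and 1 of the 10 tested fell. Most of that sum was Defa24, with 25477 and 57893 FPKM in the libraries labelled double knockout, against 32235 and 30780 FPKM in controls. Lyz1 had 1774 and 1956 FPKM in the libraries labelled double knockout, against 8832 and 3041 FPKM in controls. Of the 10 tested, 7 had log2 fold changes below 0 (70%, against 47.7% of all genes). The 14 enteroendocrine markers, led by Gip and Sct, summed to 199.6 and 146.7 FPKM in the libraries labelled double knockout, against 859 and 746 FPKM in controls, and 8 of the 13 tested fell. Members of a gastric chief cell list, led by Dmbt1 and Pgc, summed to 2164 and 603 FPKM in the libraries labelled double knockout, against 208 and 98.4 FPKM in controls, and 2 of the 4 tested rose. That sum was almost all Dmbt1, with 2121 and 573 FPKM in the libraries labelled double knockout, against 203 and 94.8 FPKM in controls. Dmbt1 was not called (limma, adjusted p = 0.0675). Pgc, which rose, had 36.9 and 20.7 FPKM in the libraries labelled double knockout, against 0.417 and 0.122 FPKM in controls (limma, adjusted p = 0.00444). Pancreatic acinar markers, led by Ctrb1 and Cela1, summed to 65.7 and 44.6 FPKM in the libraries labelled double knockout, against 7.59 and 8.66 FPKM in controls, with 4 of the 10 at 0 in every library and 1 of the 2 tested called higher. The part of these cell types in the members' values was not tested. Plasma cells, another cell with a large ER, were represented by 9 markers, led by Sdc1 and Prdm1, that summed to 84.8 and 78.0 FPKM in the libraries labelled double knockout, against 34.6 and 36.3 FPKM in controls. That sum was almost all Sdc1, which epithelium also expresses and which rose, and all 3 tested markers stood higher without overlap. Igj, the joining chain of secreted antibodies, had 2.54 and 3.63 FPKM in the libraries labelled double knockout, against 1.29 and 0.793 FPKM in controls (log2 fold change 1.00; limma, adjusted p = 0.0723). Prdm1 had a log2 fold change of 0.86 (limma, adjusted p = 0.151), and the other 6 markers were under the filter, with Mzb1, Tnfrsf17 and Cd79a at no more than 0.351 FPKM in any library. The part of plasma cells in the members' values was not tested either. Lymphocyte markers, led by Gzma and Gzmb, summed to 68.5 and 187.9 FPKM in the libraries labelled double knockout, against 84.0 and 99.7 FPKM in controls, and 0 of the 8 tested were called by limma (0 at an unadjusted p under 0.05). Myeloid markers, led by Lyz2 and Fcer1g, summed to 5.33 and 8.83 FPKM in the libraries labelled double knockout, against 14.1 and 45.3 FPKM in controls. A list of 12 immediate early and heat shock genes, led by Zfp36 and Fos, summed to 296 and 417 FPKM in the libraries labelled double knockout, against 431 and 352 FPKM in controls, and 1 of them (Hsph1) fell.

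Other genes of the pathway were read from lists of their own. Among 21 other sensors and regulators 1 rose and 0 fell (4.76%, against 9.57% of all genes), with a median log2 fold change of 0.01. The gene that rose was Ern2 (IRE1 beta), the relative of Ern1 found in mucous epithelia, with 19.0 and 15.7 FPKM in the libraries labelled double knockout, against 5.39 and 6.33 FPKM in controls (log2 fold change 1.42 ± 0.18, SE; limma, adjusted p = 0.0150). It lost the call without any 1 library (limma, adjusted p of 0.0537 to 0.0754). Among 34 other folding factors 1 rose and 1 fell (5.88%, against 9.57% of all genes), at a median of 0.08. Prdx4, a peroxiredoxin of the ER, rose to 37.9 and 52.2 FPKM in the libraries labelled double knockout, against 19.5 and 13.1 FPKM in controls (limma, adjusted p = 0.0399). Agr3, a relative of the disulfide isomerases, fell to 0.123 and 0.644 FPKM in the libraries labelled double knockout, against 4.97 and 3.86 FPKM in controls (limma, adjusted p = 0.0177). The call of Prdx4 was lost without any 1 library and that of Agr3 without either control, where the adjusted p in limma reached 0.141 and 0.0897.

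Entry into the ER and exit from it gave no calls. Of the 30 translocation and signal peptide genes 0 were called by limma, with 4 higher and 0 lower at an unadjusted p under 0.05 (13.3% higher, against 13.3% of all genes) and a median of 0.09. The most abundant of them by the mean of all 4 libraries, Dad1 of the oligosaccharyltransferase, had 184 and 137 FPKM in the libraries labelled double knockout, against 185 and 175 FPKM in controls. Within the libraries labelled double knockout the translocon gene Ssr4 stood above it, at 209 and 171 FPKM. Of the 29 ER to Golgi traffic genes 0 were called by limma, with 0 higher and 7 lower at an unadjusted p under 0.05 (24.1% lower, against 15% of all genes) and a median of -0.18. The most abundant, the coat GTPase gene Sar1b, had 254 and 239 FPKM in the libraries labelled double knockout, against 238 and 263 FPKM in controls. Among the 7 lower ones were the retrieval receptors Kdelr1 and Kdelr3 and the cargo receptor Lman1, chosen after their values were seen, with log2 fold changes of -0.59, -0.71 and -0.67 (limma, adjusted p = 0.120, 0.0571 and 0.0704). Their relatives Kdelr2 and Lman2 had -0.23 and -0.24 (limma, adjusted p = 0.41 and 0.465). The lowest value of the list was that of Sec23a, at -0.83 (limma, adjusted p = 0.0691). Of the 29 traffic genes, 20 had log2 fold changes below 0 (69.0%, against 47.7% of all genes).

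Further degradation genes were called no more often than genes at large. Of 28 tested, 0 rose and 2 fell (7.14%, against 9.57% of all genes), with a median of -0.09. Their log2 fold changes were below 0 in 21 of the 28 (75%, against 47.7% of all genes). At an unadjusted p under 0.05 limma placed 5 lower (17.9%, against 15% of all genes) and 0 higher (against 13.3%). Erlin1, a membrane protein that marks the inositol trisphosphate receptor and sterol regulators for degradation, fell to 22.8 and 17.1 FPKM in the libraries labelled double knockout, against 45.2 and 50.9 FPKM in controls (log2 fold change -1.24 ± 0.20, SE; limma, adjusted p = 0.0258). March6, a ubiquitin ligase of the ER membrane, fell to 36.9 and 24.3 FPKM in the libraries labelled double knockout, against 64.2 and 79.2 FPKM in controls (log2 fold change -1.23 ± 0.25, SE; limma, adjusted p = 0.0497). Both calls held when the first library labelled double knockout was left out and were lost when the second, or a control, was left out, where the adjusted p in limma reached 0.124 for Erlin1 and 0.189 for March6. March6, close to the threshold, also lost its call with both other pseudocounts, no filter, median centring, no intensity trend and the replicate block, with an adjusted p in limma of up to 0.0836, and Erlin1 with the replicate block, at 0.0504.

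**Figure D4:**
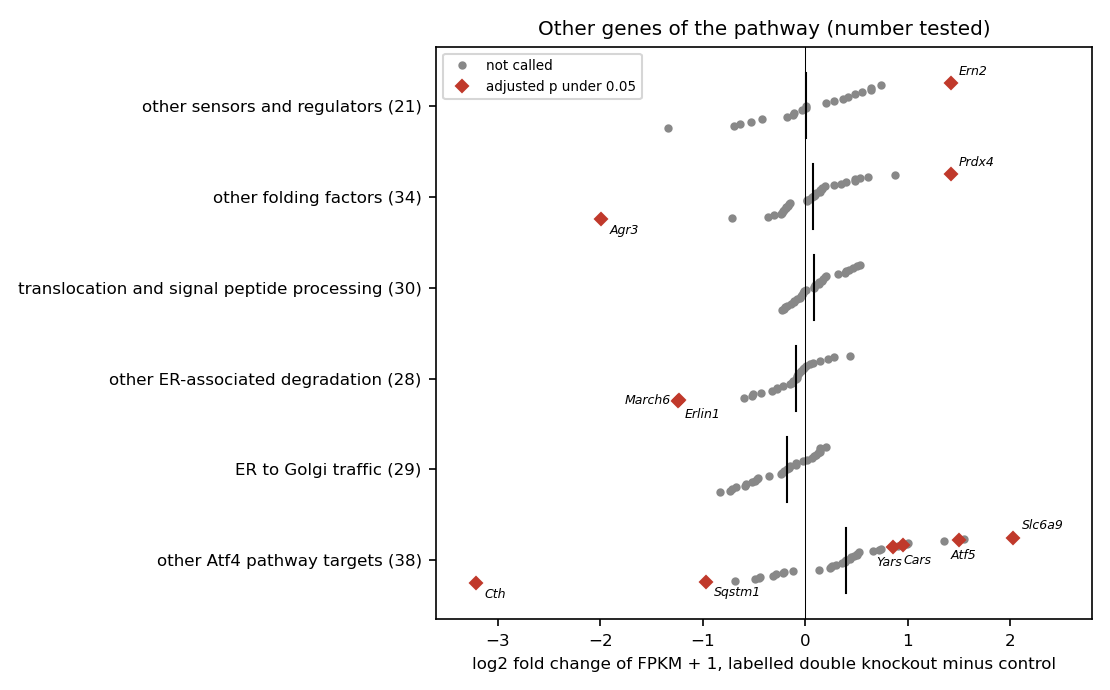
Log2 fold change of FPKM + 1, labelled double knockout minus control, for the tested genes of 6 further lists, with the number tested in brackets, red diamonds for an adjusted p under 0.05 in limma and a black bar at each median. The list of other Atf4 pathway targets has the highest median, 0.40, with Slc6a9 at 2.03 and Cth at -3.21.

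The list of other Atf4 pathway targets also held genes of both directions. Of 38 tested genes 4 rose and 2 fell (15.8%, against 9.57% of all genes), with a median log2 fold change of 0.40 against 0.02 over all genes. Slc6a9, a glycine transporter, rose to 22.1 and 17.1 FPKM in the libraries labelled double knockout, against 4.44 and 3.59 FPKM in controls (log2 fold change 2.03 ± 0.20, SE; limma, adjusted p = 0.00885). Atf5, a transcription factor of the same stress response, rose to 15.3 and 10.4 FPKM in the libraries labelled double knockout, against 4.11 and 3.56 FPKM in controls (limma, adjusted p = 0.0233). Cth, which makes cysteine from cystathionine, fell to 4.11 and 7.96 FPKM in the libraries labelled double knockout, against 58.1 and 65.8 FPKM in controls (log2 fold change -3.21 ± 0.30, SE; limma, adjusted p = 0.00809). Sqstm1, the autophagy receptor p62, fell to 50.6 and 48.1 FPKM in the libraries labelled double knockout, against 103 and 92.5 FPKM in controls (log2 fold change -0.97 ± 0.16, SE; limma, adjusted p = 0.0270). Both Slc6a9 and Cth lost the call without either control (limma, adjusted p of up to 0.0618 and 0.0654), Atf5 also without the first library labelled double knockout (up to 0.115), and Sqstm1 without any 1 library (up to 0.106).

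Within that list the 12 aminoacyl-tRNA synthetase genes, a subset chosen after their values were seen, were mostly higher, as Asns was. In 11 of the 12 both libraries labelled double knockout stood above both controls, against 31.2% of all genes, and 2 of them rose, against 3.77% of all genes. Since the subset was picked for its values, nothing is read from these shares. Cars had 16.0 and 15.3 FPKM in the libraries labelled double knockout, against 8.26 and 6.89 FPKM in controls (log2 fold change 0.96; limma, adjusted p = 0.0314). Yars had 24.9 and 20.9 FPKM in the libraries labelled double knockout, against 13.1 and 11.2 FPKM in controls (log2 fold change 0.86; limma, adjusted p = 0.0481). Nars was the exception, with 79.6 and 74.4 FPKM in the libraries labelled double knockout, against 98.6 and 92.3 FPKM in controls (log2 fold change -0.31; limma, adjusted p = 0.266). The serine synthesis genes Psat1 and Phgdh, also chosen after their values were seen, had log2 fold changes of 1.36 and 1.55 (limma, adjusted p = 0.0631 and 0.105) and groups that did not overlap, while Psph, the other gene of that pathway in the list, had 0.24 (limma, adjusted p = 0.411). The calls of Cars and Yars were lost without any 1 library (limma, adjusted p of up to 0.134 and 0.174).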

How the data were processed

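Per the labels' protocols, jejunal epithelium was detached at 4 °C in 5 mM EDTA over 45 minutes and its RNA sequenced as single-end reads of 75 bases. The submitters' processing notes name the build mm9 and, without roles, Cuffdiff, Cuffnorm, Cufflinks (version 2.1.1) and TopHat2 (version 2.0.9). The authors deposited a normalized table of 23735 rows with 1 column for each library; its header gives no unit, and its values were taken as FPKM scaled between libraries. The authors also deposited FPKM for each library alone, and a table of their comparison with group FPKM, p-values and q-values, per the file headers. Its fold change column was not used, since some cells hold a spreadsheet error.

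Rows with the same symbol were summed (147 symbols) and 1034 short RNA symbols dropped. The 10883 genes whose mean reached 1 FPKM were compared on log2(FPKM + 1) by limma (version 3.58.1, R version 4.3.3), a scale that understates changes of low genes, with genotype as the term, an intensity trend and Benjamini-Hochberg adjustment over all genes. The procedure was checked on simulated data. With 2 libraries in each group the smallest p of an exact permutation test, two-sided, is 0.333. The labels call the replicates biological, without naming the animals, so p-values rest on the spread between these libraries. In limma the spread of each gene is drawn towards that of genes of like level. Depth is unknown, so no counting interval is given.

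The members and lists were chosen with earlier results of these data known. All members were named; from each further pathway list the 4 called genes with the largest change, or the most abundant gene where none was called; from each marker list the 2 most abundant. Further genes of these lists were named outside this rule, some of them after their values were seen. The marker lists and motif searches are descriptions without tests. Alternatives changed the pseudocount (0.1 and 5), the filter (none, or 5 FPKM), the scaling, the FPKM source, the trend, the threshold (0.1) and the replicate block, and left out each library. C-terminal retrieval signals of the proteins were not analysed here.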

Additional observations from a re-analysis of the deposited data

How the results depend on the processing

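The 1041 genes called became 171 to 693 when 1 library was left out, and the 3 members called became 0. No filter on low values gave 0 members called, the replicate block 1, and an adjusted p under 0.1 gave 8. Among all genes 707 were called with no filter and 786 with the replicate block. Across genes, deviations from the group means correlated at -0.00481 between libraries of the same number. With 2 libraries a group that value cannot decide whether the numbers pair them. Other sensors numbered 2 called with FPKM of each library alone and 0 to 1 with 1 library left out, against 1. Other folding factors numbered 1 called with no filter, a 5 FPKM filter or the replicate block and 0 to 1 with 1 library left out, against 2. Other degradation genes numbered 1 called with pseudocounts of 0.1 and 5, no filter, median centring, FPKM of each library alone and no intensity trend, 0 with the replicate block, and 0 to 2 with 1 library left out, against 2. Other Atf4 targets numbered 3 called with no filter, against 6, and were fewer with any 1 library left out. They numbered 4 with the replicate block, 7 with a 5 FPKM filter or quantile normalization and 8 with FPKM of each library alone. The median of the Atf4 and Ddit3 arm was -0.36 with a 5 FPKM filter, against 0.03. With 1 library left out, the median ran from -0.25 to 0.19 for sensors and from -0.26 to 0.04 for chaperones.

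Signs that turned were all of members not called. With FPKM of each library alone, where the median of all genes was 0.17, the log2 fold change was 0.15 for Atf6, 0.11 for Hspa5, 0.08 for Hsp90b1, 0.02 for Dnajb11, 0.10 for Pdia4 and 0.17 for Derl2. With quantile normalization it was 0.03 for Hspa5 and 0.02 for Pdia4. With 1 library left out it ran from -0.11 to 0.25 for Ern1, -0.28 to 0.20 for Atf6, -0.34 to 0.58 for Xbp1, -0.24 to 0.13 for Hspa5, -0.22 to 0.05 for Hsp90b1, -0.64 to 0.04 for Hyou1, -0.17 to 0.28 for Calr, -0.19 to 0.09 for Pdia4 and -0.04 to 0.09 for Atf4. Of 389 values of single members under alternatives, 348 kept direction and side of the threshold, 18 kept direction only and 23 turned; the causes were not tested. A lone library left in a group is assumed to vary like the other group. With 2 libraries a group and unknown depth, small differences were not detectable.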
